A study of Homo sapiens with 4 samples.

Results

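The genes of the ERBB2 amplicon on 17q12, the stretch of chromosome 17 that is copied together with the receptor gene ERBB2 in many tumors, were described in the human ovarian cancer cell line SKOV3. The 10 genes were MED1, CDK12, PPP1R1B, STARD3, TCAP, PNMT, PGAP3, ERBB2, MIEN1 and GRB7, in this order along the chromosome. They were taken by symbol from the 19475 symbols listed, and the RefSeq transcript kept for each symbol was selected on the highest mean FPKM over the 4 libraries. The set itself was chosen by position on 17q12, with the rise of PPP1R1B on polymer X known from earlier results of these libraries. They covered chromosome 17 from 37560538 to 37903538 in hg19. The libraries came from SKOV3 cells on a tissue culture plate (TCP), labelled day 0 (n = 2), and from SKOV3 tumor spheroids on a plate coated with polymer X, a polymer thin film, labelled day 8 (n = 2). The design text calls the spheroids SKOV3-ssiCSC. No label names a genetic change or an added agent in either group. The study's methods give fetal bovine serum for routine culture of the line and serum replacement for spheroids, which were dissociated at intervals. The labels give a single protocol with serum replacement for all libraries, so it is unclear which medium the TCP cells had. Substrate and culture time differed between the groups together and cannot be told apart.

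ERBB2 encodes HER2, a receptor tyrosine kinase that has no known ligand of its own and signals by pairing with the other receptors of the EGFR family. GRB7 encodes an adaptor that binds the phosphorylated receptor. The genes between and beside them are passengers or partners of the amplicon, and SKOV3 is a widely used line with amplified ERBB2 and high HER2 protein.

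Levels were deposited as FPKM, the sequenced tags on a transcript scaled to its length and to the tags of the library, which allows levels of different genes to be compared per length. The libraries were scaled to between 38403000 and 44915000 tags, as read from the steps between low values. A total of 11964 genes reached 1 FPKM in 2 or more libraries and were tested. Over these genes the correlation of the replicates was 0.998 for TCP and 0.997 for polymer X, and that of libraries of different groups was at most 0.862. Of the epithelial and ovarian markers, the keratin genes KRT8 and KRT18 lay between 89.3 and 269 FPKM in all libraries, both lower on polymer X. PAX8, a Müllerian lineage factor, lay between 48.8 and 108 and was called higher on polymer X. KRT7 fell from 8.3 and 7.6 FPKM to 4.6 and 4.0. EPCAM was called higher, from 0.17 and 0.10 to 1.4 and 1.3. It reached 1 FPKM only in the polymer X libraries, so its call is partly fixed by the filter on low values. MSLN lay between 0.818 and 2.24, and KRT19, MUC16 and WT1 lay under 1. Of 9 markers of leukocytes, endothelium and fibroblasts, 8 lay under 1 FPKM in each TCP library and 7 in each polymer X library, and their summed level was 8.39 and 8.65 on TCP against 12.3 and 11.2 on polymer X. CD3E, a T cell gene, was at 0 in all libraries, and DCN, a fibroblast proteoglycan gene, was at 0.025 and 0 FPKM on TCP and at 7.26 and 6.20 on polymer X. COL1A1, another fibroblast gene and most of the sum on TCP, went the other way, from 8.21 and 8.48 FPKM to 3.81 and 3.77. PTPRC, a leukocyte gene, was at most at 0.005 FPKM on TCP and at 0.468 and 0.530 on polymer X, and PECAM1, an endothelial gene, at 0 against 0.573 and 0.458. Their part in the results below was not tested. No label states that replicates came from separate cultures, so p-values measure only the spread between these libraries.

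From PPP1R1B to GRB7, over 120362 bases, all 8 genes were higher on polymer X, by 4.03-fold to 216-fold in mean FPKM. MED1 and CDK12, which lie before them, were at 0.550 and 0.657 of their mean level on TCP. In a limma fit over all 11964 genes on log2(FPKM + 1), 8 of the 10 members were called higher and 0 lower. A gene was called when its adjusted p was under 0.05 and its log2 fold change reached 1 in either direction. Of all genes tested, 10.7% were called higher and 9.45% lower. The median log2 fold change was 2.14 over the members and -0.06 over all genes. Since the set was chosen with these libraries in view, its count is no independent evidence of a direction. In the lower direction, 2 members had an unadjusted p under 0.05, MED1 and CDK12, as did 5271 of all 11964 genes tested. GRB7 and PNMT passed the filter on low values only through the polymer X libraries, and PPP1R1B reached 1 FPKM in 1 TCP library. The calls of GRB7 and PNMT are thus partly fixed by the filter, and their values are given below with no p. The groups did not overlap for any of the 10 members, nor for 90.4% of all genes tested. Both polymer X libraries lay above both TCP libraries for 8 members and for 41.9% of all genes tested, and below them for 2 members and 48.4% of all genes. The smallest two-sided p that an exact permutation test of 2 libraries against 2 allows is 0.333, and the adjusted p-values draw on the pooled spread of all genes. In bulk RNA, a change in the number of cells that express a gene and a change in RNA per cell cannot be told apart.

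**Figure D1:**
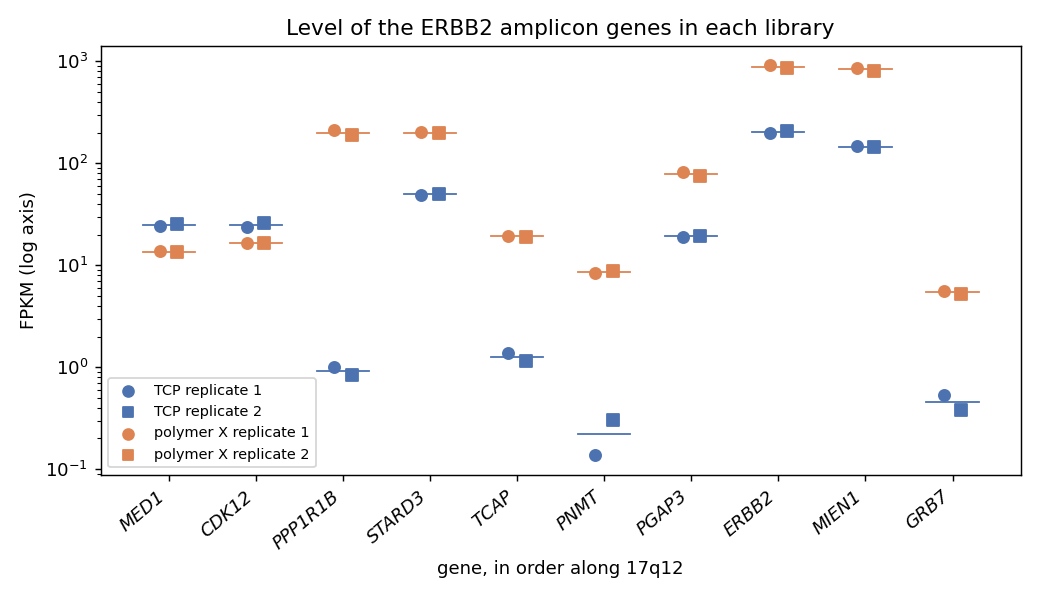
FPKM of each member (log axis) in each library, in the order of the genes along 17q12. Points are libraries and lines are group means (n = 2). From PPP1R1B to GRB7 both polymer X libraries lie above both TCP libraries, and for MED1 and CDK12 they lie below.

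ERBB2 (NM_004448, chromosome 17, 37856231 to 37884915, plus strand) was at 198 and 206 FPKM on TCP and at 913 and 860.4 on polymer X. The polymer X libraries were both above the TCP libraries, by 4.39-fold in the means (202 ± 5.15 against 887 ± 37.4, SD, n = 2). In the fit its log2 fold change was 2.13, with a standard error of 0.07 and an adjusted p = 6.7e-09 from limma. ERBB2 had the highest level of the 10 members in both groups. Among the 11964 genes tested it ranked 207th by mean FPKM on TCP and 23rd on polymer X. It took 0.0915% and 0.0949% of all tags in the TCP libraries and 0.422% and 0.397% in the polymer X libraries. The 10 members together took 0.170% and 0.176% against 0.677% and 0.639%. All 5 ERBB2 transcripts listed were higher on polymer X, by 3.76-fold to 4.52-fold. The smallest fold was that of NM_001289938, which starts 5′ of the kept transcript and ends in the middle of the gene. Its FPKM was 0.661 and 0.672 of that of the full-length NM_004448 in the TCP libraries and 0.574 and 0.565 of it in the polymer X libraries. Both polymer X libraries lay below both TCP libraries in this ratio. In GENCODE, 1825 bases of the short transcript are shared with NM_004448 and tags on them count for both, so the ratio is not a level of the short transcript itself.

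GRB7 (NM_001030002, 37894576 to 37903538, plus strand), the adaptor gene at the far end, was at 0.536 and 0.383 FPKM on TCP, or 43 and 36 tags. On polymer X it was at 5.64 and 5.22, or 472 and 444 tags. The means differed by 11.8-fold. On log2(FPKM + 1), which understates the change of a gene this low, the difference was 2.14 (standard error 0.09), and with a pseudocount of 0.1 it was 3.32. GRB7 was the lowest member on polymer X, at 0.618% and 0.607% of the level of ERBB2 in the same libraries. Its 5 transcripts were higher by 11.7-fold or more.

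MIEN1 (NM_032339, 37884753 to 37886816, minus strand), which encodes a small membrane-anchored protein linked to cell migration, lies tail to tail with ERBB2. It was at 147 and 145 FPKM on TCP and at 859 and 809 on polymer X, a rise of 5.71-fold in the means (log2 fold change 2.51, standard error 0.06, adjusted p = 2.6e-09 from limma). On polymer X its libraries came close to those of ERBB2, whose lower library was at 860.4. The ends of the 2 genes overlap by 163 bases, 11.4% of the length of the MIEN1 transcript and 3.53% of that of ERBB2. The authors counted tags without regard to strand, so tags in the overlap count for both.

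PGAP3 (NM_001291733, 37827375 to 37844323, minus strand) encodes a Golgi enzyme that remodels the lipid of GPI anchors, and lies head to head with the long ERBB2 transcripts, with 13 bases between the starts. It was at 18.9 and 19.5 FPKM on TCP and at 81.6 and 75.5 on polymer X, 4.09-fold higher in the means (log2 fold change 1.98, standard error 0.06, adjusted p = 6.1e-09 from limma). STARD3 (NM_001165938, 37793333 to 37820454, plus strand) encodes a sterol transporter of late endosomes. Its libraries were at 49.3 and 49.9 FPKM on TCP and at 202 and 197 on polymer X, 4.03-fold higher in the means (log2 fold change 1.99, standard error 0.05, adjusted p = 3.5e-09 from limma). Among their listed transcripts, 6 for PGAP3 and 3 for STARD3, the folds lay between 4.09 and 4.14 and at 4.02 to 4.03. The 4 members of the stretch that were above 10 FPKM on TCP, namely STARD3, PGAP3, ERBB2 and MIEN1, thus rose by 4.03-fold to 5.71-fold.

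**Figure D2:**
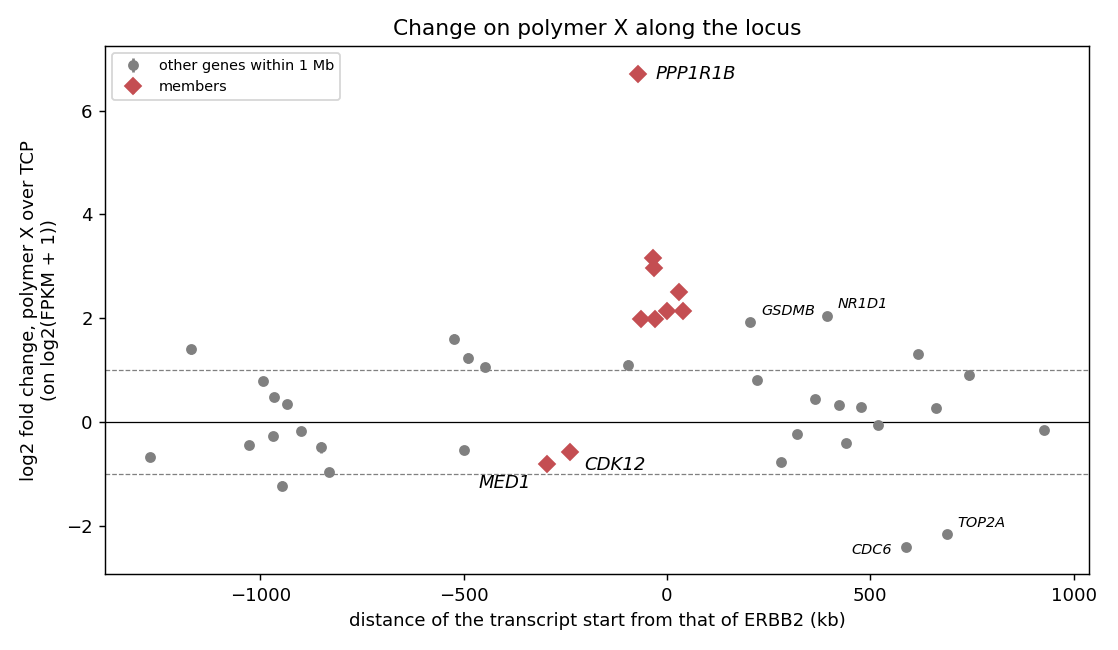
Log2 fold change of polymer X over TCP on log2(FPKM + 1) against the distance of the transcript start from that of ERBB2 (kb), with standard errors from limma, many smaller than the symbols. Diamonds are the members and circles the 32 other genes tested within 1 Mb of the first or last member. Dashed lines mark a log2 fold change of 1 and -1. The members from PPP1R1B to GRB7 lie between 1.98 and 6.71, and MED1 and CDK12 at -0.82 and -0.58.

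PPP1R1B encodes DARPP-32, an inhibitor of protein phosphatase 1 that is switched on by protein kinase A and is best known from the striatum. A shorter protein from an internal start, t-DARPP, lacks the part with the inhibitory site and is known from gastric and breast tumors. Its change was known when the members were chosen and is given as a description, with no test. The kept transcript (NM_001242464, 37784751 to 37792878, plus strand) was at 1.02 and 0.837 FPKM on TCP, or 55 and 53 tags, and at 212 and 189 FPKM on polymer X, or 11946 and 10858 tags. On TCP it ranked 11173rd of the 11964 genes tested and on polymer X 148th, next to STARD3 at 149th. The 2 genes are neighbours in the same orientation, with 454 bases between them. On TCP, STARD3 was at 49.6 ± 0.432 FPKM and PPP1R1B at 0.926 ± 0.127, whereas on polymer X the libraries of both genes overlapped (200 ± 3.16 and 200.5 ± 15.8 FPKM, SD, n = 2).

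The 3 transcripts of PPP1R1B listed have 2 starts, at 37783177 (NM_032192, full-length DARPP-32) and 1574 bases downstream (NM_181505, which encodes t-DARPP, and NM_001242464). Between NM_032192 and NM_181505, GENCODE gives 550 bases only in the former and 209 only in the latter, with the remaining exons shared. NM_001242464 lacks 85 bases of NM_181505 and otherwise shares its exons. In the TCP libraries NM_032192 held 63 and 65 tags and NM_181505 held 55 and 53. In the polymer X libraries the order was the opposite, with 10812 and 9858 tags for NM_032192 and 12397 and 11234 for NM_181505. The 209 bases of the downstream start thus held 1585 and 1376 tags more than the 550 bases of the upstream start. These differences alone correspond to at least 189 and 162 FPKM on the 209 bases, against 207 and 185 for the whole of NM_181505. On TCP the difference went the other way, by 8 and 12 tags. The ratio of the tags of NM_032192 to those of NM_181505 was 1.15 and 1.23 on TCP and 0.872 and 0.878 on polymer X. The groups did not overlap, but the ratio on TCP rests on few tags and no test was made. In mean FPKM over all its exons, NM_032192 was 166-fold higher on polymer X, and the others were 216-fold and 224-fold higher. In GENCODE, 1295 bases of NM_032192 are shared with NM_181505, and tags on them count for both. The 166-fold is thus not a rise of the transcript from the upstream start itself, which was not measured.

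**Figure D3:**
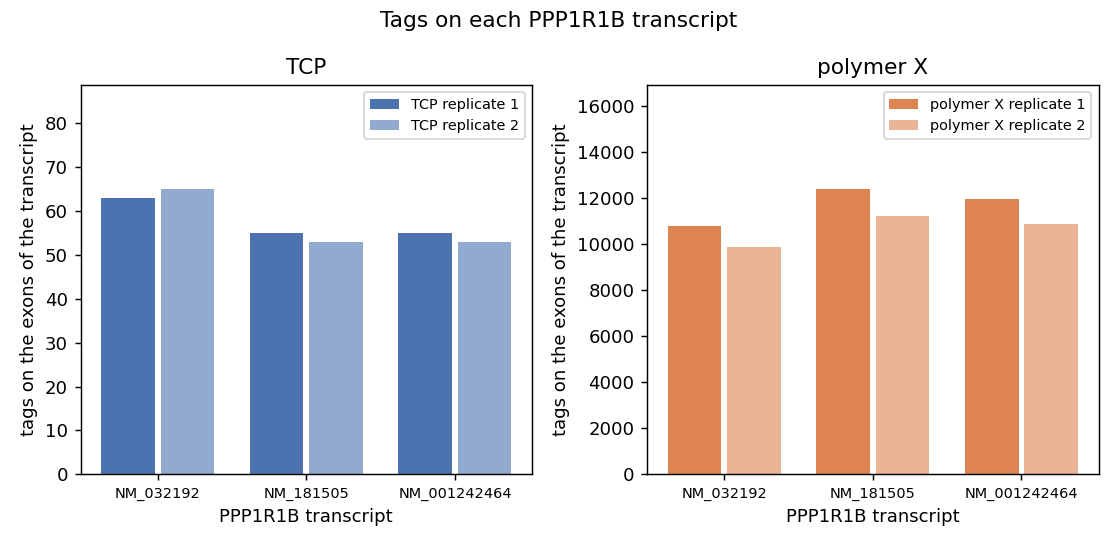
Tags on the exons of each PPP1R1B transcript in each library, on TCP (left) and polymer X (right), with separate linear axes from 0. Shared exons count for all 3 transcripts. NM_032192, from the upstream start, has the most tags on TCP and the fewest on polymer X.

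TCAP and PNMT lie between STARD3 and PGAP3 and are known from other tissues. TCAP (NM_003673, 37821599 to 37822807, plus strand) encodes telethonin, which caps titin in the Z-disc of muscle. It was at 1.39 and 1.16 FPKM on TCP and at 19.5 and 19.1 on polymer X, 15.2-fold higher in the means (log2 fold change 3.16, standard error 0.07, adjusted p = 1.9e-09 from limma). PNMT (NM_002686, 37824706 to 37826728, plus strand) encodes the enzyme that makes adrenaline from noradrenaline. It held 5 and 13 tags on TCP (0.137 and 0.304 FPKM) and 319 and 338 tags on polymer X (8.36 and 8.72 FPKM). From the summed tags it was 37.7-fold higher on polymer X (95% exact interval 23.7 to 64.0, for counting error only and on the assumption of independent tags). On the log2 scale of the fit the difference was 2.97 (standard error 0.09), and with a pseudocount of 0.1 it was 4.80. The 4 members of the stretch under 10 FPKM on TCP, namely PPP1R1B, TCAP, PNMT and GRB7, were higher by 11.8-fold to 216-fold. This grouping was made after the values were seen and on the level that each fold is taken against, so nothing is read from it.

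MED1 (NM_004774, 37560538 to 37607527, minus strand) encodes the Mediator subunit that contacts nuclear receptors. It was at 24.1 and 25.2 FPKM on TCP and at 13.7 and 13.5 on polymer X. The difference of -0.82 on the log2 scale (standard error 0.06, adjusted p = 1e-06 from limma) was short of the minimum of 1, so MED1 was not called. CDK12 (NM_015083, 37617764 to 37690818, plus strand) encodes a kinase that acts with cyclin K on the tail of RNA polymerase II. It was at 24.0 and 26.0 FPKM on TCP and at 16.5 and 16.4 on polymer X, a difference of -0.58 on the log2 scale (standard error 0.06, adjusted p = 1.7e-05 from limma), and was not called either. With no fold change minimum, 43.6% of all genes tested were lower and 37.4% higher at an adjusted p under 0.05. On TCP the libraries of MED1 and CDK12 overlapped, and both lay above PGAP3 (19.2 ± 0.431 FPKM, SD, n = 2). On polymer X both lay below TCAP.

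By mean FPKM on TCP the order was ERBB2, MIEN1, STARD3, CDK12, MED1, PGAP3, TCAP, PPP1R1B, GRB7 and PNMT. On polymer X it was ERBB2, MIEN1, PPP1R1B, STARD3, PGAP3, TCAP, CDK12, MED1, PNMT and GRB7. CDK12 and MED1 on TCP, and PPP1R1B and STARD3 on polymer X, were the neighbours in these orders whose libraries overlapped. ERBB2 and MIEN1 on polymer X (887 ± 37.4 and 834 ± 35.4 FPKM) differed by less than the sum of their SDs. GRB7 and PNMT changed places, with 0.383 to 0.536 against 0.137 to 0.304 FPKM on TCP and 5.22 to 5.64 against 8.36 to 8.72 on polymer X.

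Ratios within a library do not depend on how the library was scaled. Relative to ERBB2, STARD3 was at 24.9% and 24.3% on TCP and at 22.1% and 22.9% on polymer X, and PGAP3 at 9.53% and 9.49% against 8.94% and 8.77%. These ratios differed by -0.13 and -0.10 on the log2 scale, polymer X minus TCP. MIEN1 was at 74.0% and 70.7% of ERBB2 on TCP and at 94.1% in both polymer X libraries, a difference of 0.38. The ratio of PPP1R1B went from 0.513% and 0.407% to 23.2% and 22.0%, a difference of 5.63. MED1 went from 12.2% and 12.3% of ERBB2 to at most 1.56%, a difference of -3.00, and CDK12 from 12.1% and 12.7% to 1.80% and 1.90%, a difference of -2.74. For all 9 ratios the groups did not overlap, with 0.333 as the smallest two-sided p that an exact permutation test allows. The share of all genes tested whose ratio to ERBB2 separates the groups was not computed, so nothing is read from this count. The rise of ERBB2 (log2 fold change 2.13 in the fit) enters every ratio. In the same fit MED1 and CDK12 themselves differed by -0.82 and -0.58. The ratios of STARD3 and PGAP3 to ERBB2 thus differed least between the groups, that of MIEN1 by 0.38, and those of the other members by 1.45 or more in either direction.

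**Figure D4:**
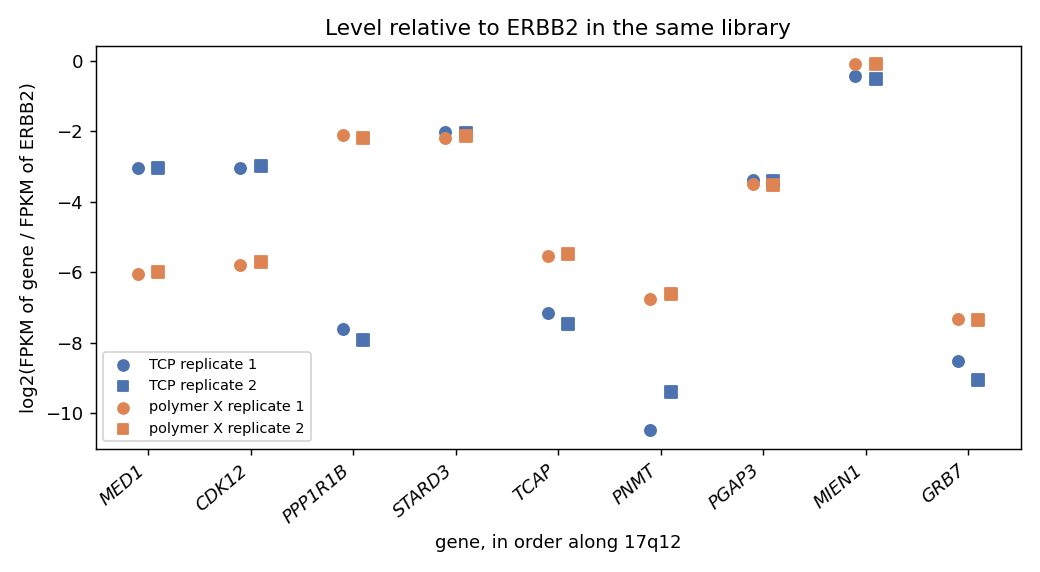
Log2 of the FPKM of each member over that of ERBB2 in the same library, in the order of the genes along 17q12. Points are libraries. For STARD3, PGAP3 and MIEN1 the groups lie 0.13, 0.10 and 0.38 apart in the means, PPP1R1B lies higher on polymer X by 5.63 in the means, and MED1 and CDK12 lie lower by 3.00 and 2.74.

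The upstream sequences of 6 members were held in the RefSeq table used here (GRCh38.p14), those of MED1, CDK12, STARD3, PGAP3, ERBB2 and MIEN1. The 250 bases before the gene start are shown for STARD3 and MIEN1, which rose, and for MED1 and CDK12, which lie outside the stretch that rose. For PGAP3 and ERBB2 the windows run into the first exon of the other gene and are not printed. Capitals mark any match, on either strand, to the motifs of STAT factors (TTCNNNGAA), the HIF core (ACGTG), AP-2 (GCCNNNGGC), the GC box (GGGCGG), the CCAAT box (CCAAT) and IRF factors (GAAA, any 2 bases, GAAA), which were chosen after the values were seen.
STARD3, chr17:39636894-39637143, plus strand: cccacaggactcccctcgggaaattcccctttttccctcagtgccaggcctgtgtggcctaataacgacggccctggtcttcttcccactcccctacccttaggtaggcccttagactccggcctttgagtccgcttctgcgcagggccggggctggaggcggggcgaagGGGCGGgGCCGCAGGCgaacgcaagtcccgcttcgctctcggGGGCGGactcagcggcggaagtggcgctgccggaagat
MIEN1, chr17:39730533-39730782, minus strand: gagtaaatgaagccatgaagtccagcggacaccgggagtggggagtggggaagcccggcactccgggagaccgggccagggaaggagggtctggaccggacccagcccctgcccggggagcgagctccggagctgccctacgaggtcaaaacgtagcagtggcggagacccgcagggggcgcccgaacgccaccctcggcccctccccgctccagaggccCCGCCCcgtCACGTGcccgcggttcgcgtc
MED1, chr17:39451264-39451513, minus strand: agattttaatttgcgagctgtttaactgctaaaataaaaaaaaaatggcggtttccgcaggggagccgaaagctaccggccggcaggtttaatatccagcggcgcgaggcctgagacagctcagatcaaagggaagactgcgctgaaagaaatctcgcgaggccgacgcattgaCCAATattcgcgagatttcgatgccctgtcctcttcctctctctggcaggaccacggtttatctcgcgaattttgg
CDK12, chr17:39461236-39461485, plus strand: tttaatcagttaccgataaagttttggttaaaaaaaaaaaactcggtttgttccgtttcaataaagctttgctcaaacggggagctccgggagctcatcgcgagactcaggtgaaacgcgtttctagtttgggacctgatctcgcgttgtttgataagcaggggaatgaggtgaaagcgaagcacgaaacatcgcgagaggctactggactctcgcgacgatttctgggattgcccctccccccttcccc

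The GC box was found before STARD3, PGAP3 and MIEN1 (3 of 6 windows, against 42.6% of 35116 promoters). It was not found before MED1, CDK12 or the long ERBB2 transcripts. STARD3 held 2 of them, 1 beside an AP-2 match (19.8% of promoters). MIEN1 also held the HIF core, read on both strands of a single palindrome (18.5% of promoters). The CCAAT box was found before MED1 and the long ERBB2 transcripts (32.0% of promoters). The kept ERBB2 transcript, NM_004448, starts farther downstream, and the bases before its start were not searched. The letters of the STAT motif (6.57% of promoters) and of the IRF motif (3.02%) were in none of the 6 windows. A match is a description of the sequence and not a site.

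The genes around the members were taken by position alone, as the 45 other symbols whose transcript starts within 1 Mb of the first or the last member. Of these, 32 were tested, 8 were called higher and 3 lower (25% and 9.38%, against 10.7% and 9.45% of all genes). Among those called higher, SRCIN1, STAC2 and NEUROD2 passed the filter only through the polymer X libraries. Their calls, and so the share called higher, are partly fixed by the filter. Their median log2 fold change was 0.28. On the other side of MED1 from CDK12, the nearest gene, FBXL20, rose with a log2 fold change of 1.07. NEUROD2, a neuronal transcription factor gene that lies in the gap of 92358 bases between CDK12 and PPP1R1B, was at 0.267 and 0.338 FPKM on TCP and at 1.95 and 1.63 on polymer X and was called higher (log2 fold change 1.10), having passed the filter only through the polymer X libraries. Past GRB7, the lymphoid factor gene IKZF3 was under 0.2 FPKM in all libraries and was not tested. The next gene tested, GSDMB, a gasdermin gene, rose from 5.21 and 5.32 FPKM to 22.9 ± 2.97 (SD, n = 2; log2 fold change 1.93). After it ORMDL3, at 0.80, was not called. Farther out, NR1D1, a clock repressor gene, rose (2.05), while CDC6, which licenses DNA replication (-2.40), and TOP2A, the topoisomerase of dividing cells (-2.17), fell. PSMB3, a proteasome subunit gene (-1.22), was the other gene called lower and was named after its value was seen.

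NEUROD2, the 8 members from PPP1R1B to GRB7, and GSDMB formed an unbroken run of 10 neighbouring tested genes that were all called higher. Across the genome, 3 runs of at least 10 such genes were found. The others were 22 protocadherin gamma genes on chromosome 5 and 10 copies of the TBC1D3 family on chromosome 17. Both of these consist of near-identical or overlapping transcripts that share tags. The next longest run, of 7 genes on chromosome 2, held 5 genes of the interleukin 1 family with PSD4 and PAX8. For genes called lower the longest run held 5 genes. These runs were looked for after the values were seen and are given without a test. NEUROD2, PNMT and GRB7 were among the tested genes only through their polymer X libraries and PPP1R1B was known to rise, so the length of the run on 17q12 depends in part on the filter and on that choice.

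Genes that encode known partners of the members were listed from general knowledge, with earlier results of these data known. The counts called in these lists are thus no independent evidence of a direction. The log2 fold changes given for the listed genes are those of the fit. Of 30 tested ERBB receptors and signal adaptors, 1 was called higher and 4 lower, with a median log2 fold change of -0.46, against 10.7% and 9.45% of all genes. Under quantile normalization 2 were called in each direction. EGFR, a receptor that can pair with HER2, fell from 24.8 and 25.9 FPKM to 6.80 and 7.69 (log2 fold change -1.68). HSP90AA1, a chaperone gene on which HER2 protein depends, fell from 954 and 976 FPKM to 242 and 207 (-2.11), and PTPN11, a phosphatase gene of the RAS route, fell as well (-1.24). ERBB3 and ERBB4 lay at or under 0.32 FPKM in all libraries and were not tested. ERRFI1, an inhibitor of EGFR family receptors, was the 1 gene called higher (1.07) and was named after its value was seen.

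For the lists that follow, the shares over all genes tested are again 10.7% called higher and 9.45% lower. Of 31 Mediator subunits and kinase module genes other than MED1, 0 were called higher and 2 lower, MED27 (-1.18) and CDK8 (-1.08), with a median of -0.27. Without polymer X replicate 2, 1 was called lower. All 16 genes of transcription elongation kinases and their partners were tested and none was called in limma, with a median of -0.29, although 15 had an unadjusted p under 0.05, as did 9807 of all 11964 genes. CCNK, the cyclin partner of CDK12, had a log2 fold change of -0.70. Among 26 genes of protein kinase A, protein phosphatase 1 and other DARPP-32 partners, PPP1R1A, a relative of PPP1R1B with the same kind of inhibitory action, was called higher (1.95, from 0.029 and 0.049 FPKM to 3.09 and 2.96), having passed the filter only through polymer X. CDK1 (-1.61) and PRKAR2A (-1.44) were called lower, and the median was -0.37. Of 16 START proteins and endosomal cholesterol transport genes, 3 were called higher and 0 lower, OSBPL5 (1.43), NPC2 (1.28) and GRAMD1A (1.01), with a median of 0.31. Of 27 genes of GPI anchor synthesis, 1 was called lower, PIGW (-1.68), with a median of 0.01, and 2 without polymer X replicate 1. None of 8 genes of the GRB7 family and its partners was called in limma (median 0.06, 5 with an unadjusted p under 0.05), and none of 5 catecholamine synthesis genes (median -0.29, 5 with an unadjusted p under 0.05). Of 13 Z-disc partners of TCAP, 3 were tested and 2 called lower, MYPN (-1.94) and ACTN4 (-1.58), the latter also the median.

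The genes most like ERBB2 over the 4 libraries, by Euclidean distance of centred log2(FPKM + 1), were ZNF117, TNNI3 and BST2, at distances of 0.034, 0.036 and 0.040. None lies on chromosome 17. The genes nearest to PPP1R1B were IFITM1, CXCR4 and ANGPTL4, at 0.57, 1.03 and 1.05. The fitted change of PPP1R1B was the largest of all genes tested, so every other gene lies below it in size. TNNI3, IFITM1 and CXCR4 passed the filter only through the polymer X libraries. TNNI3 went from 0.032 and 0.082 FPKM to 3.88 and 3.46, a larger fold than that of ERBB2, which the added 1 FPKM shrinks. Distances over 4 libraries in 2 groups mainly reflect the size of the change on log2(FPKM + 1), which is not the fold in FPKM for low genes.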

How the data were processed

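The deposited FPKM values were made by the authors with HOMER (analyzeRepeats.pl on hg19, exons, both strands), for 50078 RefSeq transcripts and each library on its own. The submitters' processing notes also name STAR 2.4.0 and DESeq, with no role. The HOMER version is not given in the sources used here. The command in the file's header also names libraries on other substrates, which were not analysed here. Alternatives were another pseudocount, filter, scaling, transcript choice, call rule or flank width, the replicate block and each library left out.

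For each of 19475 symbols the transcript with the highest mean was kept. The 11964 genes that reached 1 FPKM in 2 or more libraries were fitted on log2(FPKM + 1) by limma-trend (limma 3.58.1, R 4.3.3), without a replicate block and with Benjamini-Hochberg adjustment over all genes tested. A call needed an adjusted p under 0.05 and a log2 fold change that reached 1 in either direction. The fit was also run on simulated tags with 200 genes changed, far fewer than differed here, so that run does not measure the error of these calls. Tags per library were recovered from the steps of low values, of which all used lay within 0.1 of a whole number. Tag intervals cover counting error only.

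The members and lists were chosen with earlier results of these data known. Named are all members, their transcripts and immediate neighbours, the 4 called flanking genes and the 3 called genes of each list with the largest changes, and the 3 genes nearest to ERBB2 and to PPP1R1B. Other genes were named after their values were seen. Upstream sequences came from RefSeq (GRCh38.p14) and exon lengths from GENCODE. Coordinates of genes are hg19 as deposited. Plots were drawn with matplotlib 3.10.9.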

Additional observations from a re-analysis of the deposited data

How the results depend on the processing

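The 8 members called higher stayed 8 under every alternative except a mean FPKM of at least 5, where GRB7 and PNMT were not tested (6), and a minimum of 2 on the log2 scale, which STARD3 and PGAP3 miss (6). With no fold change minimum, 2 members were lower, MED1 and CDK12. No member changed direction. The median of the members was 2.32 at a pseudocount of 0.1, 2.32 for summed transcripts, 2.33 under quantile normalization and 2.06 at a mean FPKM of at least 5. Each library left out in turn gave 2.09 to 2.18 and 8 calls, with the lone library of a group assumed to vary like the others.

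Of the flanking genes, 8 were called higher and 3 lower. The counts were 17 and 14 with no fold change minimum, 1 and 2 with a minimum of 2 on the log2 scale, and 4 and 3 at a mean FPKM of at least 5. Within 500 kb, 15 genes were tested, of which 6 were called higher (40%, against 10.7% of all genes) and 0 lower. STAC2 and NEUROD2, which passed the filter only through polymer X, are among the 6. The median of the flanking genes, 0.28, became -0.16 at a mean FPKM of at least 5, 0 with no filter and 0.18 under quantile normalization. It was 0.34 with the transcripts summed and 0.45 within 500 kb. Without each library in turn it was 0.23 to 0.32, with 8 called higher and 3 or 4 lower. Over all genes, 1285 were higher and 1131 lower. The counts were 4477 and 5212 with no minimum, 281 and 150 with a minimum of 2 on the log2 scale, and 702 and 960 at a mean FPKM of at least 5. Fewer genes are tested at the higher filter. The cause of the other shifts was not tested.

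With the replicate block, 1285 genes were higher and 1131 lower, 8 members and 8 flanking genes were higher, and none of these counts changed. Deviations of same-numbered libraries correlated at 0.093, so no pairing was assumed. Of 270 counts of called genes in the partner lists under the alternatives, 36 moved by over 1.5 times. Most did so under the other call rules. The others were 2 higher and 2 lower ERBB genes and 2 higher PKA genes under quantile normalization, 1 lower GRB7 family gene and 2 lower GPI genes at a pseudocount of 0.1 and under quantile normalization, 1 lower GRB7 family gene for summed transcripts, 0 higher PKA genes and 1 lower Z-disc gene at a mean FPKM of at least 5, and 1 lower Mediator gene without polymer X replicate 2 and 2 lower GPI genes without polymer X replicate 1. Depth limits PNMT, with 5 and 13 tags on TCP.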
